A study of Rattus norvegicus with 34 samples.

Results

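The rat genes for enzymes that dispose of reactive aldehydes, ketones and epoxides were followed across 5 comparisons of monuron with its vehicle, in rat liver, rat kidney and the rat kidney cell line NRK-52E. Members were all genes on the array whose symbol starts with Aldh (without Aldh18a1), Akr, Cbr or Ephx and a number, which gave 37 of the 14217 named genes, namely 16 aldehyde dehydrogenases, 15 aldo-keto reductases, 3 carbonyl reductases and 3 epoxide hydrolases. Monuron is a phenylurea herbicide. RNA of 34 samples was hybridised to Affymetrix rat arrays, 1 array per sample.

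Liver and kidney came from male Wistar-derived rats of 7 to 9 weeks and 190 to 240 g, with 4 monuron and 4 control arrays for each organ. Treated rats were given monuron at 40 mg/kg on day 1 and at 400 mg/kg on days 2 and 3, in corn oil at 5 ml/kg, and control rats received the oil alone. The sample labels give 72 h as the exposure, whereas the protocol places death 72 h after the final dose. The protocol gives 8 rats, 4 per group, for the 8 liver and 8 kidney arrays. Labels and protocol do not say whether a liver and a kidney of the same number came from 1 rat. The 18 cell arrays were 3 with monuron and 3 with DMSO at each of 6, 24 and 72 h. Their titles name monuron, whereas the written cell protocol names chlorothalonil at 1.1 µM in 0.1% DMSO, so the compound and its concentration are not settled by the labels, and the cells are called monuron cells below as their titles have it. NRK-52E is a single established rat kidney line, labelled as proximal tubule epithelium. All 8 proximal tubule markers examined (Slc34a1, Lrp2, Cubn, Slc5a2, Slc22a6, Slc22a8, Miox and Aqp1) lay at or below the array median on at least 1 array of each cell group, and of 4 epithelial markers Krt8 alone lay above it on every array. All 8 were above the array median in every kidney, as were all 6 hepatocyte markers in every liver.

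Values are log2 expression levels of probe sets, so a difference of 1 is a doubling. The median level of an array was 3.96 to 4.18 in the cells, 3.89 to 3.94 in kidney and 3.66 to 3.78 in liver, and arrays of 1 group correlated at 0.987 to 0.999 across probe sets. The DMSO cells of 72 h were the least alike (0.987 to 0.995), with replicate 3 often apart for the members. A gene entered the test if enough arrays, as many as in the smallest group compared, showed it above their own median. A member is said to have risen or fallen where limma's adjusted p, corrected over all genes tested in that fit, was below 0.05. Of the 37 members 35 were tested in at least 1 sample type, 17 in all of them and 15 in tissue but not in the cells. Aldh1a2 and Aldh3b1 were tested in the cells only, and Aldh3a1 and Ephx4 were tested nowhere. In tissue a lower level can reflect fewer cells of a type or less RNA per cell, and the arrays cannot tell these apart.

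Aldehyde dehydrogenases (Aldh) oxidise aldehydes to acids, aldo-keto reductases (Akr) and carbonyl reductases (Cbr) reduce aldehydes and ketones to alcohols with NADPH, and epoxide hydrolases (Ephx) open epoxides with water to diols. Liver and kidney use these enzymes both on foreign compounds and on their own metabolites, such as retinal, acetaldehyde, steroids, sugars, lipid peroxidation products and amino acid breakdown products. Several of the genes are textbook targets of NRF2, the regulator of the antioxidant response, and of other xenobiotic sensors.

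The start regions of the 3 members with the smallest adjusted p in liver are given because these genes fell together there. The sequences are the 250 bases before an annotated start, 5′ to 3′ on the gene's strand, from RefSeq on build GRCr8. Capitals mark matches, on either strand, to TGACNNNGC (the core of the antioxidant response element bound by NRF2) or GCGTG (the core bound by the aryl hydrocarbon receptor, AhR). The motifs can overlap one another. Aldh1a1 lies at chr1:227537370-227537619 on the plus strand, Akr7a3 at chr5:156876471-156876720 on the plus strand, and the 2 annotated starts of Ephx1 at chr13:95275853-95276102 and chr13:95263118-95263367 on the minus strand.
Aldh1a1: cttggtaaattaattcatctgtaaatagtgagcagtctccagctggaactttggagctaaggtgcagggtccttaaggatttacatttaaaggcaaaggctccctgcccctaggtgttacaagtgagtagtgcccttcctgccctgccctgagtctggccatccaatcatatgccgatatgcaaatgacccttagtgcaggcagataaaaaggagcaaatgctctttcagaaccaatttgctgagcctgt
Akr7a3: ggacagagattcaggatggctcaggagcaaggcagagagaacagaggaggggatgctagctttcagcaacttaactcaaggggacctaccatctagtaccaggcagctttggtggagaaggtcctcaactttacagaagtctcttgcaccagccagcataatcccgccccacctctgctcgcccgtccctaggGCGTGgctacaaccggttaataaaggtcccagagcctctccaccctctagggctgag
Ephx1, first window: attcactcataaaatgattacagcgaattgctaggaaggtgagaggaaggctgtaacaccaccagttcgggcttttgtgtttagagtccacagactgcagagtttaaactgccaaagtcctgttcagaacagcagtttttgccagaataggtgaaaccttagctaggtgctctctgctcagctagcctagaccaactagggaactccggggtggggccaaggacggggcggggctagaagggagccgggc
Ephx1, second window: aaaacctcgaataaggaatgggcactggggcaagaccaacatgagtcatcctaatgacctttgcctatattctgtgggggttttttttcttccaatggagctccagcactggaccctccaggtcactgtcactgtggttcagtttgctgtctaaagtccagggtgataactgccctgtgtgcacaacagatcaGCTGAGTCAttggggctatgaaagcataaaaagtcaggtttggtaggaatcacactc
The Aldh1a1 window held neither motif. The Akr7a3 window held GCGTG once, at position -57 before the start, and the second Ephx1 window held the NRF2 core once on the opposite strand, also at position -57. Start regions were matched for 29 of the 37 members. The NRF2 core was in those of 4 members (Akr1c15, Aldh16a1, Aldh1a2 and Ephx1) and in 10.1% of all 33469 windows of this length, and GCGTG was in those of 9 members and in 25.9% of all windows. A match describes letters only, and binding was not measured.

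In liver, 5 members were lower and 1 was higher after monuron. Aldh1a1 was 4.06-fold, Akr7a3 4.45-fold and Ephx1 1.72-fold lower. Of the 31 members tested 6 passed the test (19.4%), where 3.12% of all 9361 genes did, 1.1% of all genes being higher and 2.02% lower. The median difference was -0.10 over the members and -0.07 over all genes.

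Aldh1a1 encodes a cytosolic enzyme that oxidises retinal to retinoic acid as well as lipid aldehydes. Its levels were 11.13, 11.16, 11.19 and 10.79 in the monuron livers and 13.25, 13.00, 12.91 and 13.18 in the control livers. All treated livers lay below all controls, and replicate 4 was the lowest. The log2 difference was -2.02 (SE 0.11, n = 4 and 4, limma adjusted p = 1.20e-04). It was the only one of 13 aldehyde dehydrogenases tested in liver that passed, and the other 12 differed by -0.62 to 0.56. Among those, the mitochondrial acetaldehyde enzyme Aldh2 differed by 0.14 (SE 0.09, adjusted p = 0.366) and the fatty aldehyde enzyme Aldh3a2 by -0.22 (SE 0.08, adjusted p = 0.133).

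Akr7a3 encodes the aflatoxin aldehyde reductase. Its levels were 10.83, 10.95, 11.72 and 11.02 with monuron and 13.49, 13.26, 13.33 and 13.05 in controls. The groups were well apart, with treated replicate 3 the nearest to the controls. The difference was -2.15 (SE 0.18, limma adjusted p = 0.00156). Its relative Akr7a2, a succinic semialdehyde reductase whose gene neighbours it with no protein-coding gene between them in RefSeq, had levels of 12.12, 12.26, 12.00 and 11.89 against 12.78, 12.73, 12.46 and 12.54. Those groups did not overlap either, and Akr7a2 was lower by a smaller step of -0.56 (SE 0.10, adjusted p = 0.0285).

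The remaining aldo-keto reductases of the liver divided. Akr1a1, the general aldehyde reductase, had levels of 13.27, 13.35, 13.45 and 13.31 against 13.62, 13.58, 13.60 and 13.57, a difference of -0.24 (SE 0.05, limma adjusted p = 0.0478). Akr1c13, of the hydroxysteroid dehydrogenase branch, had levels of 13.05, 12.83, 13.11 and 12.81 against 12.39, 12.60, 12.64 and 12.54, a difference of 0.41 (SE 0.09, adjusted p = 0.0463), and was the only member that rose. Neither pair of groups overlapped, but both steps were small and both adjusted p-values were close to the threshold. Akr1b8 ranged from 2.88 to 6.28 with monuron and from 3.49 to 6.68 in controls, so its difference of -1.15 (SE 0.97, adjusted p = 0.507) was within the spread of the livers. Akr1d1, the steroid 5-beta-reductase of bile acid synthesis, was measured by a pair of probe sets that disagreed: the one with the higher mean differed by 0.30 (adjusted p = 0.188) and the other by -0.47 (adjusted p = 0.0314 when each probe set was tested on its own), so no direction is given for it. Akr1d1 was singled out after its values were seen.

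Ephx1, the microsomal epoxide hydrolase that acts on epoxides of foreign compounds, had levels of 13.63, 13.65, 13.72 and 13.71 in treated livers and 14.56, 14.52, 14.40 and 14.34 in controls. The treated livers were tightly grouped and all lay below the controls. The difference was -0.78 (SE 0.06, limma adjusted p = 0.00156). Ephx2, the soluble enzyme that hydrolyses fatty acid epoxides, had levels of 10.78, 10.64, 10.74 and 9.97 against 10.93, 11.20, 11.60 and 10.96. Its groups did not overlap, but its difference of -0.64 (SE 0.20) did not pass (adjusted p = 0.111), although it did with all 16 tissue arrays in 1 fit (adjusted p = 0.0187). Neither carbonyl reductase tested in liver passed, with Cbr1 at -0.16 (SE 0.25, adjusted p = 0.728).

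The calls of Aldh1a1, Akr7a3 and Ephx1 held in every alternative fit, including each left-out liver. Akr1a1 was lost with any of the 8 livers left out (limma adjusted p 0.0559 to 0.136). Akr1c13 was lost without controls 1, 2 or 4 or treated livers 1, 2 or 3 (adjusted p 0.0609 to 0.129). Akr7a2 was lost without controls 1, 2 or 4 or treated livers 1 or 3 (adjusted p 0.0662 to 0.0950). Each of those Akr7a2 fits left 3 of the 6 calls, and 37 to 66 of all genes passed there, in place of 292. Akr1a1, Akr1c13 and Akr7a2 were also lost without a filter or without a mean-variance trend (adjusted p 0.0543 to 0.1197), Akr1c13 and Akr1a1 with the replicate number as a block (0.113 and 0.1204), Akr1a1 with centred arrays (0.0503), and Akr1c13 with all 16 tissue arrays (0.136) or the mean of all probe sets (0.0530).

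**Figure D1:**
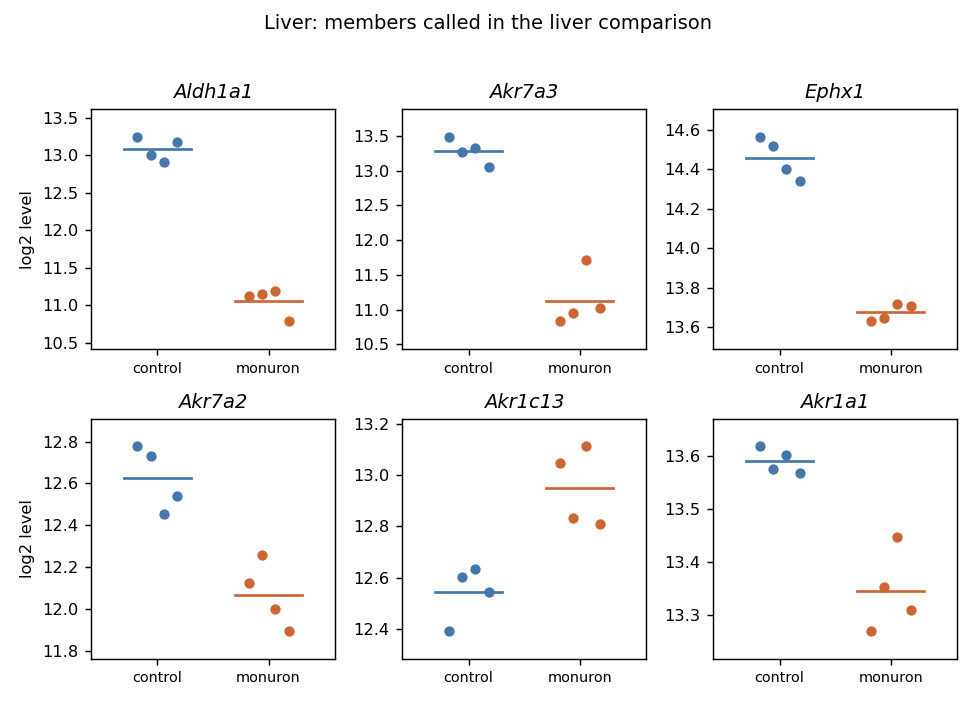
Log2 levels (vertical axis, own scale in each panel) of the 6 members that passed the test in liver, with 1 point per array (4 control, blue; 4 monuron, orange) and a line at the group mean. Aldh1a1 and Akr7a3 fell from group means near 13 to near 11, and the groups do not overlap in any panel. The 6 were chosen by the test on these same arrays, so the lack of overlap is no separate evidence.

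Other enzymes of alcohol, aldehyde and carbonyl handling were set beside the members. Of 32 such partner genes tested in liver none rose and 3 fell (9.38%). Of all genes 3.12% passed there, 1.1% being higher and 2.02% lower. Nqo1 fell by -1.59 (SE 0.35, limma adjusted p = 0.0466), Gsta4 by -0.53 (SE 0.06, adjusted p = 0.00868) and Sord by -0.40 (SE 0.07, adjusted p = 0.0228). Nqo1 is the NRF2-driven quinone reductase, Gsta4 conjugates the lipid aldehyde hydroxynonenal, and Sord oxidises sorbitol, the product of aldose reductase. Of 7 NRF2 target genes tested 5 fell (71.4%) and none rose, Nqo1 being counted in this list as well. Of 3 AhR targets Cyp1a1 fell (33.3%), of 7 CAR and PXR targets Ugt2b1 fell (14.3%), and of 5 PPARalpha targets Vnn1 fell (20%). The summed level of the 6 hepatocyte markers was 18.029 to 18.090 with monuron and 17.998 to 18.047 in controls, and none of the 6 passed the test. Of the 5 proximal tubule markers tested in liver, Aqp1 and Slc22a8 rose, and the summed level of all 8 was 12.27 to 12.45 against 11.83 to 12.03. Their part in the members' differences was not tested.

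In kidney, 4 aldehyde dehydrogenases of mitochondrial aldehyde and amino acid breakdown rose by 0.37 to 0.56 and Ephx1 fell by 0.68 on the log2 scale. Of the 28 members tested 5 passed (17.9%), where 10.2% of all 9542 genes did, 3.87% of all genes being higher and 6.34% lower. The members' median difference was -0.08, the same as that of all genes. By family, 4 of 12 aldehyde dehydrogenases tested rose and none fell (median 0.12), none of 11 aldo-keto reductases and none of 3 carbonyl reductases passed, and 1 of 2 epoxide hydrolases fell.

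Aldh2 oxidises acetaldehyde and lipid aldehydes in mitochondria. Its levels were 13.03, 13.01, 13.01 and 13.20 in treated kidneys and 12.48, 12.55, 12.48 and 12.51 in controls. The groups were apart by several times their spread. The difference was 0.56 (SE 0.06, n = 4 and 4, limma adjusted p = 9.89e-04).

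Aldh6a1 oxidises methylmalonate semialdehyde in valine and thymine breakdown. It stood at 14.63, 14.54, 14.50 and 14.44 against 14.27, 14.15, 14.05 and 13.94, without overlap, a difference of 0.43 (SE 0.08, adjusted p = 0.0103). Its other probe set gave a larger difference, of 1.14 (SE 0.21, adjusted p = 0.0146 with each probe set tested on its own). In liver this other probe set differed by 0.90 (adjusted p = 0.0753) and the main one by 0.11 (adjusted p = 0.296), so the size of the Aldh6a1 difference depended on the probe set. That liver comparison was added after its values were seen.

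Aldh4a1 takes part in proline breakdown and Aldh7a1 in lysine breakdown. Aldh4a1 stood at 12.12, 12.36, 12.20 and 12.28 against 11.80, 12.05, 11.73 and 11.90, without overlap, a difference of 0.37 (SE 0.08, limma adjusted p = 0.0222). Aldh7a1 stood at 13.79, 13.81, 13.71 and 13.51 against 13.23, 13.27, 13.23 and 13.53, a difference of 0.39 (SE 0.09, adjusted p = 0.0263). Its groups overlapped, because control replicate 4 was higher than treated replicate 4. Of the other 8 aldehyde dehydrogenases tested in kidney, which differed by -0.75 to 1.07, Aldh1a1 had levels of 13.84, 13.90, 13.88 and 13.77 against 13.99, 13.98, 14.03 and 14.01. These did not overlap, but the difference of -0.15 (SE 0.05) did not pass (adjusted p = 0.0646). Aldh5a1, singled out after its values were seen, differed by 0.07 on the probe set with the highest mean (limma adjusted p = 0.866). Another of its probe sets differed by 0.74 (SE 0.20, adjusted p = 0.04835 with each probe set tested on its own). Whether Aldh5a1 passed thus depended on the probe set.

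Ephx1 was the only member that fell in kidney. Its levels were 11.48, 11.82, 11.78 and 11.91 against 12.39, 12.28, 12.66 and 12.37, with no overlap, and the difference was -0.68 (SE 0.11, limma adjusted p = 0.00609). Ephx2 differed by -0.05 (SE 0.06, 95% interval -0.18 to 0.08). The carbonyl reductase Cbr3 was at 3.29, 4.23, 3.93 and 4.27 against 4.91, 4.71, 5.40 and 4.49, close to the array median in the treated kidneys. Its groups did not overlap and the difference of -0.95 (SE 0.27) was just short of the threshold (adjusted p = 0.0520), which it passed with values below the array median set to that median (-0.79, adjusted p = 0.0386), with a stricter filter (adjusted p = 0.0487) and with all 16 tissue arrays (adjusted p = 0.0167). Cbr1 differed by -0.15 (SE 0.13, adjusted p = 0.483).

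The aldose reductase branch was the most variable in kidney. Akr1b8, a rodent aldose reductase-like protein, was at 4.46, 4.49, 9.51 and 10.35 in treated kidneys and 12.30, 9.04, 11.82 and 9.71 in controls. Treated replicates 1 and 2 were near the array median, whereas replicates 3 and 4 were within the control range. The difference of -3.52 had an SE of 1.40 and did not pass (limma adjusted p = 0.132). Akr1b1, the aldose reductase that makes sorbitol from glucose and serves as an osmolyte enzyme in the renal medulla, was at 9.75, 9.68, 8.98 and 8.78 against 8.84, 9.55, 11.08 and 13.08. Its controls alone ran from 8.84 to 13.08, and its difference of -1.34 (SE 0.77, adjusted p = 0.274) was within that spread. Akr1b10, singled out after its values were seen, differed by -0.97 (SE 0.67, adjusted p = 0.362) on the probe set with the higher mean and by -1.57 (SE 0.24, adjusted p = 0.00699) on its other probe set. Akr1b1, Akr1b8, Akr1b10 and Akr1b7 are adjacent in RefSeq, and whether the probe sets tell these related transcripts apart was not tested.

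Akr7a3 had kidney levels of 13.77, 14.12, 14.12 and 14.66 against 14.42, 14.60, 14.53 and 14.40. Treated replicate 4 was the highest of all 8, and the difference of -0.32 (SE 0.16) did not pass (limma adjusted p = 0.199). Without that array it was -0.49 (adjusted p = 0.0186). Akr1a1 differed by -0.10 (SE 0.05, adjusted p = 0.204).

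Aldh2, Aldh6a1 and Ephx1 held with each kidney left out. Aldh7a1 was lost without any of controls 1, 2 or 3 or treated kidneys 1, 2 or 3 (limma adjusted p 0.0574 to 0.0867). It was also lost without a filter (0.0524), without a mean-variance trend (0.05005) and with the replicate number as a block (0.0965). Aldh4a1 was lost without control 3 or treated kidneys 2 or 3 (adjusted p 0.0518 to 0.0707). The count of 5 became 3 without control 3 or treated kidneys 2 or 3. Over all genes 371, 706 and 383 passed in those fits, in place of 974.

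**Figure D2:**
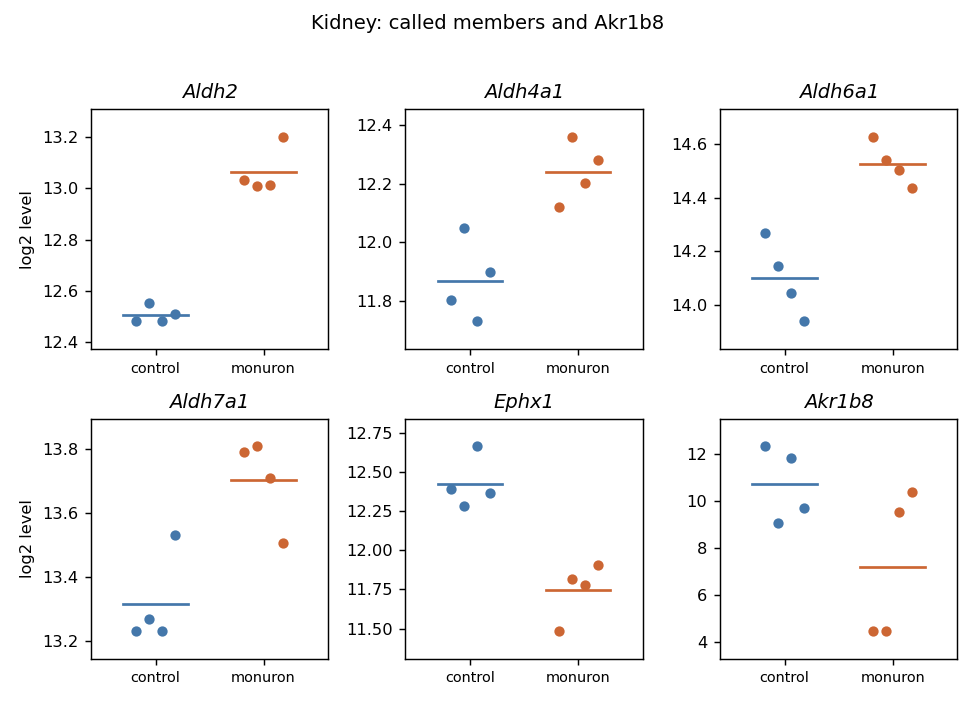
Log2 levels (vertical axis, own scale in each panel) in kidney of the 5 members that passed the test and of Akr1b8, with 1 point per array (4 control, blue; 4 monuron, orange) and a line at the group mean. Aldh2, Aldh4a1 and Aldh6a1 are higher and Ephx1 is lower in every treated kidney, Aldh7a1 overlaps between the groups, and Akr1b8 runs from 4.46 to 10.35 with monuron.

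Of 27 partner genes tested in kidney 2 rose and 2 fell, which made 14.8%. Of all genes 10.2% passed there, 3.87% being higher and 6.34% lower. The quinone reductase Nqo2 rose by 0.30 and the retinol dehydrogenase Rdh16 by 0.81. Nqo1 fell by -2.93 (SE 0.27, limma adjusted p = 9.22e-04) and Ptgr1 by -0.82. Of 7 NRF2 targets, Nqo1 again among them, 5 fell (71.4%) and none rose, with Srxn1 at -3.49 (SE 0.46, limma adjusted p = 0.00337). Of 6 PPARalpha targets Cpt1a, Cyp4a1 and Vnn1 fell (50%). Abcc2 fell among 2 CAR and PXR targets tested, and neither of 2 AhR targets passed. The kidneys also differed in cell type markers. Of 8 proximal tubule markers Cubn rose by 1.01 and Lrp2 by 0.63, and the summed level of the list was 17.08 to 17.31 with monuron and 16.99 to 17.11 in controls. The summed level of the 6 hepatocyte markers was 9.20 to 11.97 against 6.88 to 9.58, with none of the 3 tested past the threshold. Krt8 fell among 4 epithelial markers (summed level 14.29 to 14.51 against 14.51 to 14.92), and Ptprc rose among 3 immune markers tested (summed level 13.79 to 14.27 against 14.14 to 14.36). None of 6 other nephron markers, 3 endothelial, 4 fibroblast and 3 bile duct markers tested passed. Their part in the members' differences was not tested.

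The organs were compared by testing whether the treatment difference itself differed between them. The main joint fit took the 16 arrays as independent. With the replicate number as a shared animal 6 members passed as well, with 384 of all genes. Of the 33 members tested in the joint fit 6 passed (18.2%), where 2.68% of all 10114 genes did, 1.09% being higher and 1.59% lower in liver relative to kidney. Aldh1a1 (-1.87, SE 0.12, limma adjusted p = 4.52e-07), Akr7a3 (-1.83, SE 0.26, adjusted p = 0.00122) and Akr7a2 (-0.77, SE 0.13, adjusted p = 0.00358) had lower treatment differences in liver than in kidney, and these held with each array left out. Aldh4a1 (-0.57, adjusted p = 0.0333) and Aldh2 (-0.42, adjusted p = 0.0426) also had lower differences in liver than in kidney. Akr1c15 had the reverse order (2.19, SE 0.50, adjusted p = 0.0287): its liver levels were 7.52, 7.57, 7.73 and 8.50 with monuron against 5.57, 6.40, 7.49 and 7.06, and its kidney levels were 3.33, 3.29, 3.41 and 3.42 against 4.82, 4.56, 4.54 and 3.50. All treated kidneys and control replicate 4 were below the array median for Akr1c15. With values below that median set to it the difference was 1.75 (limma adjusted p = 0.0559), so the call was lost. It was also lost without a filter (adjusted p = 0.0554). In the fits of single organs Akr1c15 did not pass in liver (1.20, SE 0.40, adjusted p = 0.121) and was not tested in kidney. With all 16 tissue arrays in 1 fit its liver difference passed (limma adjusted p = 0.0401).

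Ephx1 fell in both organs. Its liver and kidney differences were -0.78 and -0.68, and their difference was -0.10 (SE 0.13, 95% interval -0.37 to 0.17, limma adjusted p = 0.773). The adjusted p-values of Aldh4a1, Aldh2 and Akr1c15 rose above the threshold in 11, 13 and 7 of the 16 fits that each left out 1 array, reaching 0.0796, 0.0892 and 0.0657 at most, so those calls were lost there. Aldh4a1 and Aldh2 were also lost without a filter, without a mean-variance trend and with the replicate number as a block (adjusted p 0.0554 to 0.0933), and Aldh2 with centred arrays (0.0617). The count of 6 became 3 without kidney control replicate 3 or treated kidneys 2 or 3. Over all genes 158, 214 and 154 passed in those fits, in place of 271.

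**Figure D3:**
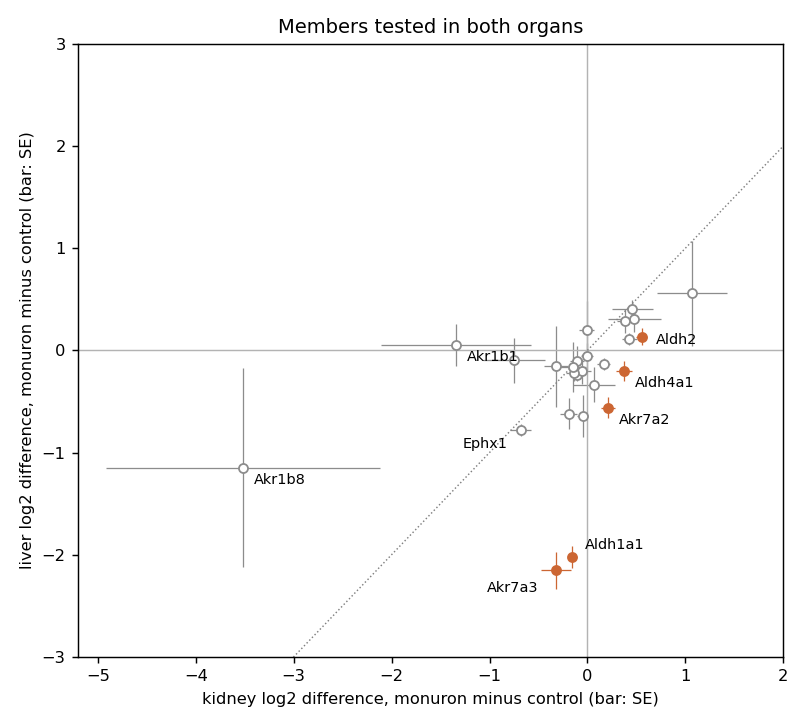
Log2 difference between monuron and control in liver (vertical axis) against that in kidney (horizontal axis) for members tested in both organs, with bars of 1 standard error and a dotted line of equal differences. Orange points are members whose difference differed between the organs in the joint fit: Aldh1a1 and Akr7a3 lie near -2 in liver and near 0 in kidney, and Ephx1 lies close to the line.

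In the cells, 20 of the 37 members were tested, and the number that passed was 4 at 6 h, 6 at 24 h and 17 at 72 h. Aldh1a1 and Akr7a3, the members with the largest falls in liver, were at 1.88 to 1.94 and 2.08 to 2.15 on all cell arrays, below the array median, and were not tested there. The shares below are read against those of all genes, which rose over time as well.

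At 6 h, 4 of 20 members passed (20.0%), where 6.31% of all 9042 genes did, 3.3% being higher and 3.02% lower. With the arrays centred on their medians all genes were split into 175 higher and 389 lower, in place of 298 and 273, and the members stayed at 1 higher and 3 lower. Cbr3, a carbonyl reductase, was at 9.19, 9.07 and 8.91 with monuron and 9.71, 9.63 and 9.39 with DMSO, a difference of -0.52 (SE 0.12, n = 3 and 3, limma adjusted p = 0.0215). Cbr1, which reduces quinones and prostaglandins, was at 11.45, 11.31 and 11.41 against 11.79, 11.67 and 11.68, a difference of -0.32 (SE 0.09, adjusted p = 0.0455). Cbr3 and Cbr1 were lower on all treated arrays, by less than a log2 unit. Cbr4, the other carbonyl reductase tested, differed by -0.06 (limma adjusted p = 0.901), with overlap between the groups.

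Akr1b1 was at 12.94, 12.79 and 12.79 at 6 h against 13.22, 13.10 and 13.12, a difference of -0.30 (SE 0.07, limma adjusted p = 0.0210). Aldh6a1 was at 7.95, 7.95 and 7.82 against 7.07, 7.60 and 7.22, a difference of 0.61 (SE 0.16, adjusted p = 0.0287), and was the only member that rose. Neither gene's groups overlapped. Akr1b8 was at 7.87, 7.66 and 7.49 against 8.54, 8.38 and 8.02, a difference of -0.64 (SE 0.20, adjusted p = 0.0643), which passed with the replicate number as a block (adjusted p = 0.00751). The 6 h calls depended on single arrays, as did those of all genes. None of the 20 members passed without DMSO replicate 1 or monuron replicate 2 or 3 of that time. In the fits without DMSO replicate 2 or monuron replicate 1, 2 members passed. Over all genes 103 to 177 passed in the former fits and 302 or 382 in the latter, in place of 571. Cbr1 was lost in 14 of the 18 fits that left out 1 array (adjusted p up to 0.187), without a filter (0.0575) and without a mean-variance trend (0.0587).

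At 24 h, 6 of 20 members passed (30.0%), where 13.6% of all genes did, 6.43% being higher and 7.14% lower. Cbr4, a mitochondrial reductase of the short-chain family, was at 10.86, 10.70 and 10.48 with monuron and 9.56, 9.72 and 9.67 with DMSO. The groups were apart, and the difference of 1.03 (SE 0.18, limma adjusted p = 0.00276) was a 2.04-fold rise. Akr1b8 was at 8.96, 8.95 and 8.86 against 8.07, 8.05 and 8.01, a rise of 0.88 (SE 0.20, adjusted p = 0.00983). Akr1b1 was at 12.65, 12.67 and 12.64 against 13.04, 13.00 and 12.95, a fall of 0.34 on the log2 scale (SE 0.07, adjusted p = 0.00638). With the mean of its probe sets Akr1b1 was not called (-0.19, limma adjusted p = 0.171). Its other probe set was above the array median on no array of 24 h (mean 3.62 with monuron and 3.65 with DMSO). That mean is therefore not a second measurement, and the opposite directions of these adjacent genes rest on the main probe set of Akr1b1.

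Aldh7a1 was at 11.68, 11.70 and 11.87 at 24 h against 12.13, 12.17 and 12.09, a difference of -0.38 (SE 0.09, limma adjusted p = 0.0119). Cbr3 was at 8.09, 8.07 and 8.17 against 8.48, 8.53 and 8.59, a difference of -0.42 (SE 0.12, adjusted p = 0.0338). Akr1c19, at 4.79, 4.59 and 5.15 against 4.05, 4.21 and 3.27, lay close to the array median, and its difference of 1.00 (SE 0.32, adjusted p = 0.0498) became 0.68 (adjusted p = 0.0889) with values below that median set to it. Cbr1 differed by -0.25 (SE 0.09, adjusted p = 0.0763), Ephx1 by 0.16 (SE 0.14, adjusted p = 0.490) and Ephx2 by 0.64 (SE 0.30, adjusted p = 0.166). With the 6 arrays of 24 h fitted alone the count was 12 in place of 6. Over all genes it was 3217 in place of 1227. Without DMSO replicate 2 or monuron replicate 1 or 2 of 24 h the members' count was 3, and that of all genes was 523 to 590. Leaving out any of the 6 samples from 24 h also ended the calls of Akr1c19 and Cbr3 (adjusted p 0.0613 to 0.185), Akr1c19 was lost in 8 further fits that left out a sample of another time (adjusted p 0.0559 to 0.0633), and Aldh7a1 was lost without DMSO replicate 2 or monuron replicate 1 or 2 (adjusted p 0.0501 to 0.0560).

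At 72 h, 17 of 20 members passed (85.0%), 12 lower and 5 higher, where 61.6% of all genes did, 30.7% being higher and 30.9% lower. The members' median difference was -0.51 and that of all genes was 0.01. Without DMSO replicate 3 of 72 h 15 members passed, 11 lower and 4 higher. With the 6 arrays of 72 h alone 12 passed, 10 lower and 2 higher. That fit lost the calls of Aldh4a1, Aldh9a1, Akr1b1, Cbr4 and Ephx1 (limma adjusted p 0.0901 to 0.112). Over all genes 5996 passed without that replicate and 3706 with the 6 arrays alone, in place of 5572. All 9 aldehyde dehydrogenases tested passed, of which 8 fell (median -0.69), as did both Cbr1 and Cbr4, whereas 3 of 6 aldo-keto reductases rose and 2 fell.

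Aldh1a2, which makes retinoic acid from retinal, was at 10.26, 10.18 and 9.63 with monuron and 12.24, 11.98 and 11.10 with DMSO. DMSO replicate 3 was the lowest control but still above every treated array. The difference was -1.75 (SE 0.22, limma adjusted p = 5.71e-06), a 3.37-fold fall. Aldh16a1 was at 7.10, 6.77 and 6.56 against 8.24, 7.76 and 7.91, a difference of -1.16 (SE 0.16, adjusted p = 1.65e-05). Aldh7a1 was at 11.02, 10.85 and 10.75 against 11.61, 11.52 and 11.42, a difference of -0.65 (SE 0.09, adjusted p = 1.56e-05).

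The mitochondrial Aldh2 was at 11.41, 11.40 and 11.39 at 72 h against 12.62, 12.09 and 11.62, a difference of -0.71 (SE 0.15, limma adjusted p = 9.26e-04). Aldh3a2, of fatty aldehydes, was at 11.18, 11.12 and 11.15 against 12.15, 11.80 and 11.56, a difference of -0.69 (SE 0.12, adjusted p = 9.61e-05). For both, the treated arrays were nearly equal and the control arrays were spread, with DMSO replicate 3 the lowest. Aldh6a1 was at 9.74, 9.86 and 9.59 against 10.81, 10.13 and 10.33, a difference of -0.69 (SE 0.16, adjusted p = 0.00116). It thus stood lower at 72 h after standing higher at 6 h. Its other probe set differed by -0.56 (adjusted p = 0.268) at 72 h and by 1.28 (adjusted p = 0.0913) at 6 h when tested on its own.

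Aldh3b1 was at 3.70, 3.78 and 3.52 at 72 h, below the array median, against 5.74, 5.43 and 5.28, and its difference of -1.82 (SE 0.35, limma adjusted p = 2.91e-04) was -1.44 with values below that median set to it. Aldh9a1 and Aldh4a1 were outside the naming rule and were named after their values were seen. Aldh9a1, of carnitine synthesis, differed by -0.39 (SE 0.12, adjusted p = 0.00991). Aldh4a1 differed by 0.46 (SE 0.15, adjusted p = 0.0120), which makes it the only aldehyde dehydrogenase that rose. Aldh9a1 was lost without DMSO replicate 1 of 72 h (-0.22, adjusted p = 0.0599) and Aldh4a1 without DMSO replicate 2 (0.27, adjusted p = 0.0816).

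Akr1b8 was at 9.47, 9.79 and 10.04 at 72 h against 7.59, 7.98 and 8.54. All treated arrays lay above all controls, and the rise of 1.73 (SE 0.20, limma adjusted p = 3.04e-06) was 3.32-fold. Akr1a1, at 13.77, 13.82 and 13.77 against 13.47, 13.59 and 13.54, rose by 0.25 (SE 0.05, adjusted p = 1.84e-04). Akr1b1, at 12.59, 12.78 and 12.78 against 12.40, 12.62 and 12.42, rose by 0.24 (SE 0.07, limma adjusted p = 0.00902), with overlap between the groups. It did not pass with the 6 arrays of 72 h alone (adjusted p = 0.0966) or with the mean of its probe sets (adjusted p = 0.0970). The other probe set was above the array median on no array of 72 h.

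Akr1c19 was at 3.39, 3.08 and 3.46 at 72 h, below the array median, against 5.76, 4.20 and 4.93. The difference was -1.65 (SE 0.32, limma adjusted p = 3.64e-04), or -0.92 with values below that median set to it. Akr7a2 was at 9.41, 9.53 and 9.24 against 10.09, 9.92 and 9.71, a difference of -0.52 (SE 0.13, adjusted p = 0.00207).

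Cbr1 had the smallest adjusted p of the members at 72 h. It was at 10.29, 10.21 and 10.08 against 11.35, 11.11 and 10.93, without overlap, a difference of -0.93 (SE 0.09, limma adjusted p = 6.90e-07). Cbr3 differed by -0.24 (SE 0.12, adjusted p = 0.106), and by -0.35 (adjusted p = 0.0284) without monuron replicate 3. Cbr4, named after its values were seen, was at 9.38, 9.66 and 9.32 against 9.62, 9.88 and 10.38, a difference of -0.51 (SE 0.18, adjusted p = 0.0240) with overlap. Without DMSO replicate 3 it was -0.30 (adjusted p = 0.127), and it was also lost without monuron replicate 1 (-0.48, adjusted p = 0.0640) or 3 (-0.44, adjusted p = 0.0837).

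Ephx1, which fell in both organs, was at 10.63, 10.70 and 10.76 at 72 h in the monuron cells and 10.43, 10.52 and 9.86 with DMSO. The treated arrays were above the controls, and the difference was 0.42 (SE 0.14, limma adjusted p = 0.0176). It was 0.22 (adjusted p = 0.101) without DMSO replicate 3 and 0.39 (adjusted p = 0.0542) without monuron replicate 3, so the call was lost without either array. Ephx2 differed by -0.50 (SE 0.30, adjusted p = 0.154), and by -0.83 (adjusted p = 0.0201) without DMSO replicate 1.

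**Figure D4:**
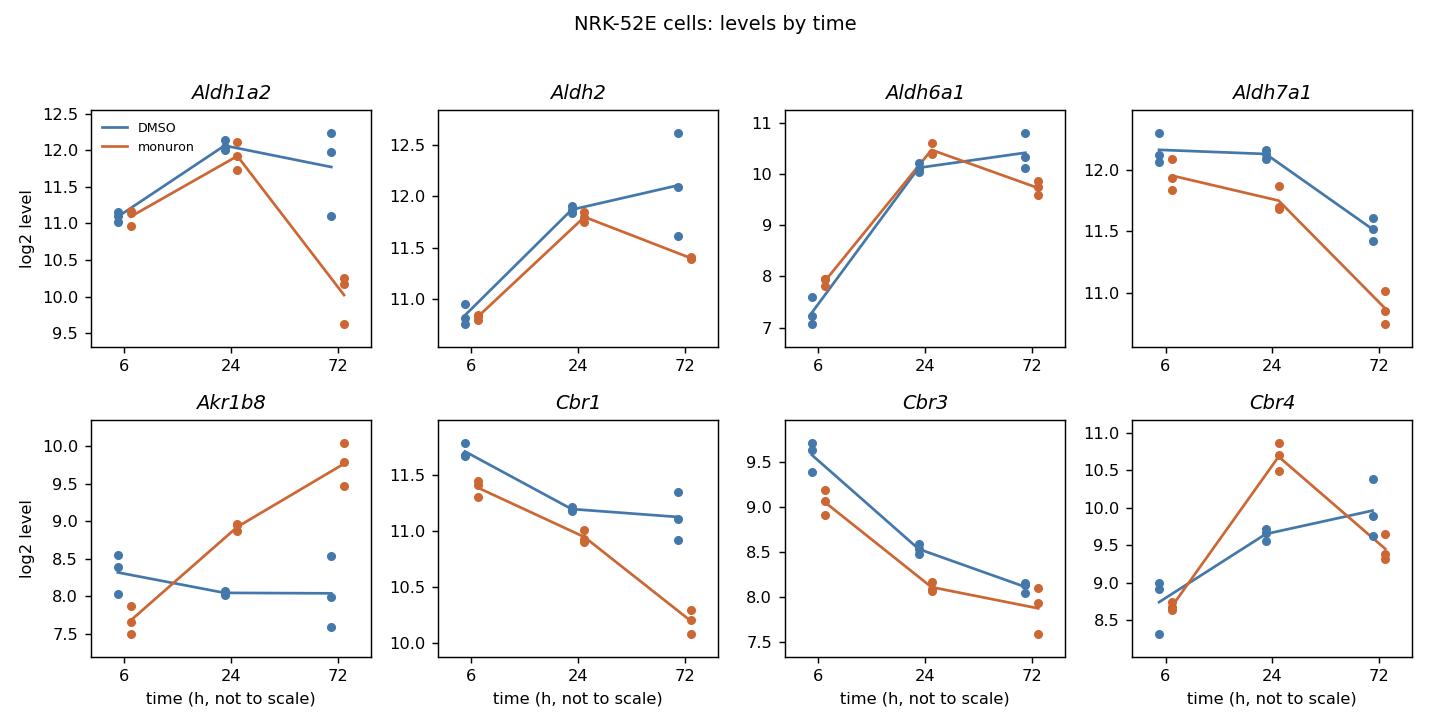
Log2 levels (vertical axis, own scale in each panel) of 8 members in NRK-52E cells at 6, 24 and 72 h, with 1 point per array, 3 arrays per group, and lines through the group means (DMSO blue, monuron orange). Aldh1a2, Aldh2 and Cbr1 part from the controls mainly at 72 h, Akr1b8 is lower at 6 h and higher at 24 and 72 h, and Cbr4 is highest with monuron at 24 h.

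The change of the treatment difference over time was tested in the same fit. From 6 to 24 h 1 of 20 members passed (5.00%), where 1.22% of all genes did, 0.641% being higher and 0.575% lower. That member was Akr1b8, whose difference went from -0.64 to 0.88 (a change of 1.52, SE 0.28, limma adjusted p = 0.0226), but it was lost in 9 of the 18 fits that left out 1 array, namely those without DMSO replicates 1 or 2 or monuron replicates 2 or 3 of 6 h, and without DMSO replicates 1 or 2 or any monuron replicate of 24 h (adjusted p 0.0505 to 0.0700). From 24 to 72 h 15 of 20 passed (75.0%), 4 upward and 11 downward, where 37.9% of all genes did, 18.3% being upward and 19.6% downward. The count was 9 without DMSO replicate 1 of 24 h, where 2859 of all genes passed in place of 3423. The 6 with the smallest adjusted p were Cbr4 (-1.54, SE 0.26, adjusted p = 3.92e-04), which turned from higher to lower, Akr1c19 (-2.65, SE 0.46) and Aldh3b1 (-2.80, SE 0.49), both with monuron levels at 72 h below the array median, Cbr1 (-0.68, SE 0.13), Akr1b1 (0.58, SE 0.10), which turned from lower to higher, and Akr1a1 (0.36, SE 0.06). The adjusted p-values of the last 5 were 4.54e-04 to 8.42e-04.

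**Figure D5:**
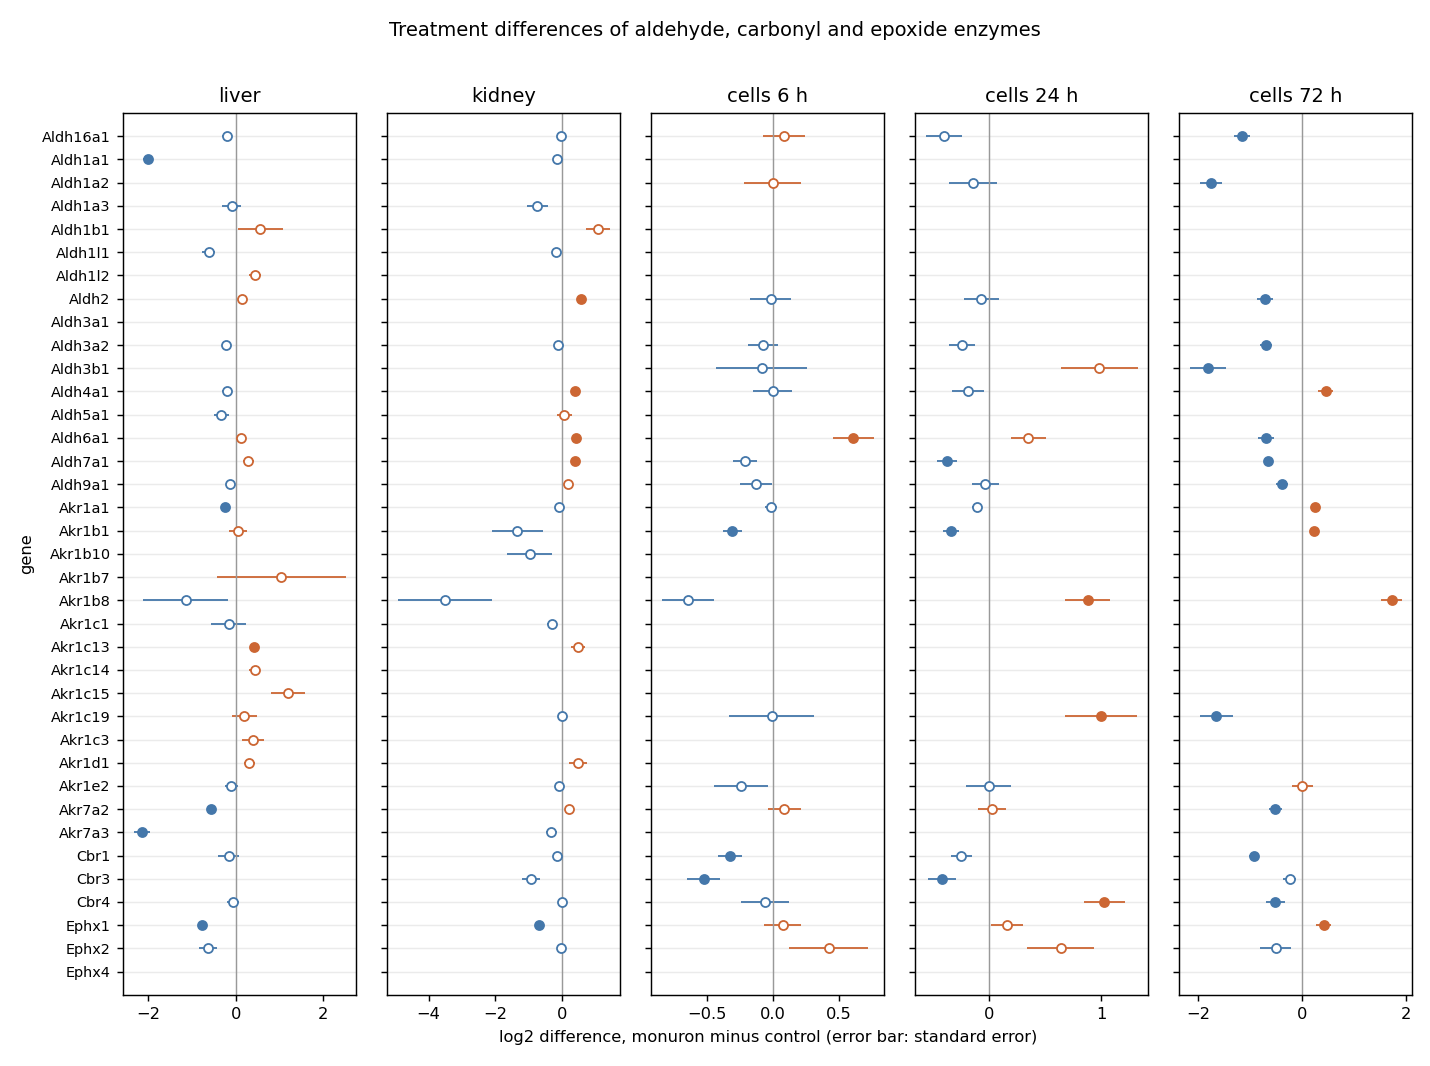
Log2 differences between monuron and control (horizontal axis, own scale in each panel) of all members tested, by gene, in liver, kidney and cells at 6, 24 and 72 h, with bars of 1 standard error. Filled points passed the test and open points did not, orange is higher and blue lower with monuron, and a gene with no point was not tested there. Filled blue points dominate the aldehyde dehydrogenases of the cells at 72 h, whereas the 4 filled aldehyde dehydrogenases of the kidney are orange.

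Among the partner genes 20 were tested in the cells. At 6 h 4 fell and none rose (Dhrs3, Hagh, Mgst1 and Por), or 20%, where 6.31% of all genes passed. At 24 h 2 rose (Dhrs7 and Rdh14) and 2 fell (Dhrs1 and Hagh), again 20%, where 13.6% of all genes passed. At 72 h 2 rose (Glo1 and Rdh10) and 9 fell, or 55.0%, where 61.6% of all genes passed. Among those 9 were the short-chain reductases Dhrs1 at -1.78 (SE 0.27, limma adjusted p = 4.67e-05) and Dhrs7 at -0.74 (SE 0.11, adjusted p = 3.50e-05). Of 8 NRF2 targets none passed at 6 h and Gclc fell at 24 h. At 72 h 6 rose (75%) and none fell, where 30.7% of all genes rose, with Srxn1 at 2.24 (SE 0.28, limma adjusted p = 5.68e-06). Srxn1 therefore had the opposite sign at 72 h to that in liver and kidney. Nqo1, which fell in both organs, differed by 0.14 in the cells at 72 h and did not pass (limma adjusted p = 0.471). Of 3 AhR targets tested, Cyp1a1 and Cyp1b1 fell at 6 h, Cyp1a1 and Tiparp rose and Cyp1b1 fell at 24 h, and Cyp1a1 fell at 72 h. The 1 CAR and PXR target tested was Por, also one of the partner genes, which fell at 6 h and did not pass at 24 or 72 h. Of 2 PPARalpha targets Pdk4 rose at 24 h and Cpt1a fell at 72 h.

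Other markers moved in the cells at 72 h as well. The 8 proximal tubule markers, none of which was tested in the cells, had a summed level of 5.22 to 5.27 with monuron and 5.38 to 8.03 with DMSO at 72 h, without overlap, and of 5.19 to 5.26 over the groups of 6 and 24 h. Krt8 fell by 1.11 on the log2 scale (summed level of the 4 epithelial markers 11.46 to 11.86 with monuron and 12.65 to 12.93 with DMSO). Of 3 fibroblast markers tested Acta2 rose by 1.63 and Col1a1 and Col3a1 fell (summed level 13.59 to 13.80 against 13.39 to 14.63). Cd68 rose by 2.30 among 5 immune markers, of which it alone was tested (5.90 to 6.58 against 5.01 to 5.27) and Tek fell by 1.95 on the log2 scale among 3 endothelial markers, likewise the 1 tested (4.00 to 4.10 against 4.40 to 6.27). The hepatocyte, other nephron and bile duct markers were below the array median on at least 1 array of every cell group, with none tested. At 6 and 24 h none of the markers tested passed. Their part in the members' differences was not tested.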

How the data were processed

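Expression was measured on 34 arrays (18 of cells, 8 of kidney, 8 of liver), with groups taken from the sample labels. The deposited values are log2 levels, 1 per probe set and array. The authors used GCRMA, as the submitters' processing notes state, which subtracts background, equalises distributions and combines the probes of a set. The sources used here give neither its version nor the probe set definition. Arrays have no read depth, and their number limits the precision. Levels were compared within a sample type only, and the joint fit compared treatment differences between the organs. Probe set levels were summed for the marker lists, ranked to choose the probe set of a gene, and averaged in an alternative. Levels of different members were not compared.

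Of 31099 probe sets 57 controls were left out. Of the rest 20826 had 1 gene symbol, 436 several and 9780 none. Where a gene had several probe sets, the one with the highest mean in a fit stood for it. A probe set shared by Aldh3b2 and Aldh3b3 was not used. The test was limma's moderated, two-sided test (version 3.58.1 under R 4.3.3; lmFit and eBayes, prior variance following mean level), Benjamini-Hochberg adjusted over all genes tested, with 0.05 as threshold. All cell arrays formed 1 fit of 6 groups, each organ had its own, and the 16 tissue arrays had a joint fit for the difference between organs. The code was tested on simulated data with planted changes. Changes of 0.5 on the log2 scale passed in 34.8% of cases in liver, 50.7% in kidney and 53.7% in cells at 72 h. For changes of 1 the shares were 73.4%, 85.9% and 85.1%. Of the genes that passed there, 5.76%, 9.64% and 5.99% had no planted change. A member that did not pass can therefore still differ by such a step. SE is limma's moderated standard error.

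Members and gene lists were chosen with earlier results of these data known. Named are members that passed (up to 12 per comparison, 6 per difference of differences, by adjusted p) and a panel: Aldh1a1, Aldh2, Aldh3a1, Aldh3a2, Akr1a1, Akr1b1, Akr1b8, Akr7a3, Cbr1, Cbr3, Ephx1 and Ephx2. Aldh1a7, also on the panel, was not analysed here. Alternatives were other filters, centring, other probe set rules, limited values, no trend, robust fits, single-time or pooled fits, replicate blocks and leaving out each array.

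Deviations of same-numbered arrays correlated at r 0.491, 0.198 and 0.290 at 6 h and at 0.205, 0.167 and 0.317 at 72 h. The highest r of unlike-numbered arrays was 0.301 at 6 h and 0.275 at 72 h. These values therefore do not settle whether the numbers pair. The main test took no pairing, and the replicate block was an alternative. At 24 h, in kidney and in liver some same-numbered r were negative. The cell labels call the replicates biological, with 3 studies per time, and the tissue arrays come from separate rats within a group.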

Additional observations from a re-analysis of the deposited data

Results flagged for a closer look

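In 60 groups of 4 arrays of the named members, 6 held an array whose gap to the others passed Dixon's 95% critical value, which chance passes in about 1 of 20 groups. These were Aldh2 in kidney monuron replicate 4 (13.20, the others 13.01 to 13.03), Aldh7a1 in kidney control replicate 4 (13.53, the others 13.23 to 13.27), Aldh1a1 in liver monuron replicate 4 (10.79, the others 11.13 to 11.19), Aldh3a2 in liver control replicate 3 (13.26, the others 13.49 to 13.51), and Akr1b10 in kidney monuron replicate 3 (5.30, the others 7.36 to 7.71) and kidney control replicate 1 (6.03, the others 8.45 to 8.74).

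The treatment difference itself differed between organs, by limma's test of liver minus kidney, for Aldh1a1 (-1.87), Akr7a3 (-1.83), Akr7a2 (-0.77), Akr1c15 (2.19), Aldh4a1 (-0.57) and Aldh2 (-0.42). It differed between 6 and 24 h in the cells for Akr1b8 (1.52). It differed between 24 and 72 h, among the 6 members named, for Cbr4 (-1.54), Akr1c19 (-2.65), Akr1b1 (0.58), Aldh3b1 (-2.80), Akr1a1 (0.36) and Cbr1 (-0.68).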

How the results depend on the processing

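Of 55 called results for single named members, 34 kept their call in every alternative other than leaving out 1 array, 28 kept it in all, and 24 lost it with some array left out. Of 51 uncalled ones 11 passed in some alternative. The 1 reversal was Akr1d1 in liver, at -0.47 on its other probe set, an alternative chosen after seeing the data. The number of members that passed was 12 at 24 h with the 6 arrays of that time alone (main 6), 3 in liver without a filter and 3 without a mean-variance trend (main 6), and 3 for liver minus kidney without a filter (main 6). For 24 minus 6 h it was 3 with limited values and 2 with robust fits (main 1). At 72 h it was 12 with the 6 arrays of that time alone (main 17). Over all genes the numbers in these fits were 3217 at 24 h (main 1227) and 3706 at 72 h (main 5572). They were 95 and 117 in liver (main 292) and 212 for liver minus kidney (main 271). For 24 minus 6 h they were 139 and 119 (main 110). The cause was not tested. Leaving out 1 array gave 0 to 5 at 6 h, 3 to 8 at 24 h, 15 to 17 at 72 h, 0 to 3 for 24 minus 6 h, 9 to 15 for 72 minus 24 h, 3 to 6 in kidney, 3 to 6 in liver and 3 to 7 for liver minus kidney. Over all genes these fits gave 103 to 1188 at 6 h, 461 to 2060 at 24 h and 4836 to 5996 at 72 h. They gave 15 to 586 for 24 minus 6 h and 2782 to 4426 for 72 minus 24 h. In kidney they gave 371 to 935, in liver 37 to 508 and for liver minus kidney 154 to 501. With the replicate number as a block the counts were 5 at 6 h, 7 at 24 h, 17 at 72 h, 2 for 24 minus 6 h, 14 for 72 minus 24 h, 4 in kidney, 4 in liver and 4 for liver minus kidney, and 6 for the last with the number as a shared animal. Over all genes the block gave 1030 at 6 h, 1822 at 24 h and 5805 at 72 h. For 24 minus 6 h it gave 429, and for 72 minus 24 h 3920. In kidney it gave 350, in liver 40 and for liver minus kidney 117, the last being 384 with the shared animal. The block changed no call of a named member at 6 or 72 h other than that of Akr1b8 at 6 h, which it added. Elsewhere it ended those of Akr1a1 and Akr1c13 in liver, Aldh7a1 in kidney, Aldh2 and Aldh4a1 for liver minus kidney and Ephx2 for 72 minus 24 h, and added Cbr1 at 24 h.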
